A study of Mus musculus with 3 samples.

Results

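The 84 genes described here encode the nuclear part of the oxidative phosphorylation machinery and were read from the 28692 genes of a single-cell RNA series on mouse inguinal white fat. They were chosen by symbol alone: Nduf followed by a, b, c, s or v and a number, Sdha to Sdhd, and symbols that begin with Uqcr, Cox4 to Cox8 or Atp5, without pseudogenes and predicted genes. By complex they are 35 genes of complex I, 4 of complex II, 8 of complex III, 20 of complex IV and 15 of complex V. The complex IV group holds Ndufa4 and Ndufa4l2, since the Ndufa4 protein sits in complex IV. The other 2, Atp5s and Atp5sl, carry an ATP synthase symbol but were counted with no complex. Cox7b2 and Cox8c, which are known as testis forms of cytochrome c oxidase subunits, had no UMI in any library, which leaves 82 genes with a value.

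Oxidative phosphorylation takes electrons from NADH at complex I and from succinate at complex II, passes them through complex III to oxygen at complex IV, and uses the proton gradient built on the way to make ATP at complex V. Most subunits are encoded in the nucleus and imported, while a small core of complexes I, III, IV and V is encoded by mitochondrial DNA. In brown and beige adipocytes the respiratory chain feeds heat production through Ucp1, and several subunits have forms restricted to muscle, to thermogenic fat or to cells that respond to low oxygen.

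The material was the stromal vascular fraction of inguinal fat from C57BL/6 mice (blood vessel, progenitor and immune cells, with the floating adipocytes gone), freed with a Miltenyi adipose dissociation kit and profiled on 10x Chromium 3' v3. The control library came from mice given saline. The cold library came from mice kept at 4 C for 3 days, and the CL library from mice injected intraperitoneally with CL 316,243, a selective β3-adrenergic receptor agonist, at 1 mg/kg for 3 days. All groups were of the same strain and no transgene or deletion was named. The sources used here do not give the number of mice behind a library, their sex or age, or any injection of the cold group. With 1 library per treatment there is no replicate spread, so no test was run: each value carries a 95% interval that covers counting error only, and a difference between libraries can be a difference between treatments or between single preparations, which cannot be told apart.

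Depth was 25875379 UMIs (unique molecular identifiers, 1 per captured molecule) in the saline, 19899223 in the cold and 29323106 in the CL library. After filters and doublet removal 5956, 3743 and 6345 cells remained. Pairs of libraries shared 9 to 14 cell barcodes. Clusters were made without the 84 genes. The 13 classes with at least 50 cells in a library were named from markers and are called by the nearest type ("ASPC-like" stands for adipose stem and progenitor cells), and 1.41%, 0.908% and 0.284% of the cells stayed unnamed. The 7 main classes had at least 100 cells in each library: ASPC-like, endothelial-like, macrophage-like, monocyte-like, type 2 conventional dendritic (cDC2)-like, mature dendritic cell (mature DC)-like and B cell-like. The mix of cells differed widely: macrophage-like and monocyte-like cells made up 13.6% and 4.73% of saline, 5.32% and 4.03% of cold and 30.7% and 29.9% of CL cells.

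Levels are CPM, the UMIs of a gene or group per 1000000 UMIs of the class. Summed over all 84 genes, pericyte/smooth muscle-like cells stood highest in the saline library with 19152 CPM (18608 to 19709), followed by type 1 conventional dendritic (cDC1)-like cells with 15610 CPM (15399 to 15823). B cell-like cells stood lowest with 9584 CPM (9478 to 9692), below ASPC-like cells with 10840 CPM (10765 to 10915). Between these ends the intervals of several neighbours overlapped: cDC1-like and monocyte-like cells, cDC2-like, plasmacytoid DC-like and T cell-like cells, and the row from mature DC-like through NK cell-like and endothelial-like to macrophage-like cells. In the CL library B cell-like cells were again lowest, with 10686 CPM, but NK cell-like and macrophage-like cells stood near the top, with 19147 and 16549 CPM. The 46 pericyte/smooth muscle-like cells of that library read 19928 CPM.

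**Figure D1:**
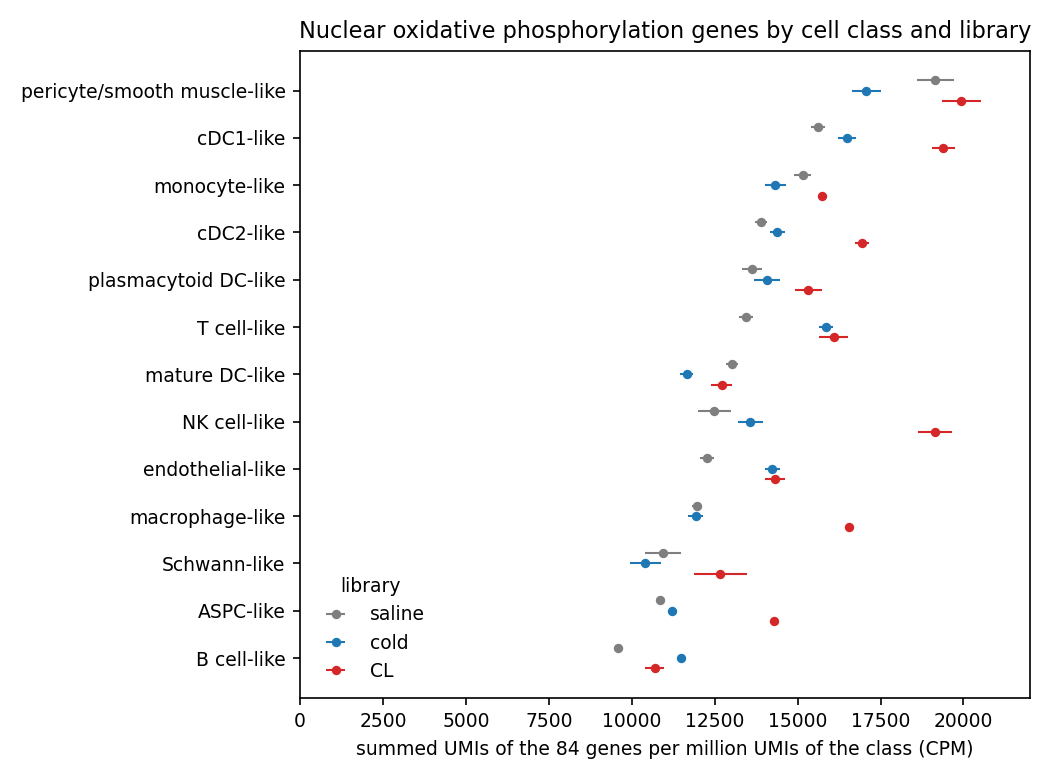
Summed UMIs of the 84 genes per 1000000 UMIs of each class (x axis, from 0), by cell class (y axis, ordered by the saline value) and library (colour); bars are exact 95% Poisson intervals. In ASPC-like and macrophage-like cells the CL point lies far to the right of the saline and cold points, at 14294 and 16549 CPM, while in B cell-like cells the cold point, at 11478 CPM, is the highest.

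Single genes followed this order only in part. Of the 74 genes with a median of at least 20 CPM over the classes and no class-restricted pattern, 32 were highest in pericyte/smooth muscle-like cells, 11 in cDC1-like and 10 in macrophage-like cells. The lowest class was mature DC-like for 28 and B cell-like for 26. For these genes the highest class exceeded the lowest by a median of 2.55-fold (range 1.66 to 7.56), so the common subunits were present in every class and differed in degree.

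The other pattern belonged to 4 isoforms of complex IV, whose highest class held at least 30 UMIs of the gene and had at least 3 times the level of the next class or at least 8 times the median over the classes. Cox6a2 (chr7:128205435-128206387), the heart and skeletal muscle form of subunit VIa, was read in plasmacytoid DC-like cells at 620, 573 and 481 CPM in the saline, cold and CL libraries (363, 208 and 167 UMIs). Over the 3 libraries this level was 255 times that of the next class, macrophage-like cells. Cox6a2 made up 76.7%, 75.1% and 69.3% of the Cox6a1 and Cox6a2 UMIs in these cells, so the muscle form outnumbered the common form in each library. A Cox6a2 UMI was found in 74.8%, 71.2% and 62.4% of plasmacytoid DC-like cells, at median depths of 3998, 5085 and 3462 UMIs, against 0.125% of the saline B cell-like cells (median 1695 UMIs) and 0 of 1428 cold and 239 CL ones, where a count of 0 (limit of 3 cells of the total) allows up to 0.210% and 1.26% of cells with a UMI. Cells with at least 1500 UMIs were also thinned to 1500, which left out 2, 2 and 4 plasmacytoid DC-like cells. The share was then 44.8%, 53.5% and 42.3%, so the order of the libraries is not the same at equal depth. Of 9 skeletal muscle genes, 6 (Acta1, Myh4, Myh1, Ckm, Tnnt3 and Tnnc2) had no UMI in plasmacytoid DC-like cells. Mylpf had 2, 3 and 0 UMIs. Atp2a1, which encodes the calcium pump of fast muscle, had 51, 39 and 42 UMIs there, against 0, 6 and 0 in the far more numerous B cell-like cells. Tnni2, a fast troponin subunit, had 25, 15 and 26 UMIs there (42.7, 41.3 and 74.8 CPM), against 5.89, 7.15 and 10.5 CPM in B cell-like cells.

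Ndufa4l2 (chr10:127514967-127517154), known as a target of the hypoxia-inducible factor that replaces Ndufa4, was read in pericyte/smooth muscle-like cells at 315, 415 and 572 CPM (77, 139 and 129 UMIs in 60, 44 and 46 cells). It supplied 53.8%, 55.6% and 65.8% of the Ndufa4 and Ndufa4l2 UMIs in these cells, so it was the more frequent of the pair in each library. The intervals of the saline and CL levels did not overlap (248 to 393 and 478 to 680 CPM). The class itself differed in make-up, since its 9 pericyte and smooth muscle markers summed to 15466, 5706 and 10230 CPM. Their part in the isoform levels was not tested. In ASPC-like cells, the next class, Ndufa4l2 lay between 15.1 and 22.0 CPM, 25.2-fold lower over the libraries together. Within ASPC-like cells it was uneven: cluster 10 (marked by Col15a1 and Col4a1) had 29.4, 45.5 and 32.1 CPM and cluster 15 (Gdf10, Gas6) had 53.6, 58.1 and 40.5 CPM, while cluster 4 (Pi16) had none in saline and cold cells and 1.0 CPM in CL cells. Thinned to 1500 UMIs, 38.9%, 47.5% and 45.2% of pericyte/smooth muscle-like cells had a Ndufa4l2 UMI, compared with 0, 0.144% and 0.714% of B cell-like cells. Cells under that depth were left out of these shares: 6, 4 and 4 pericyte/smooth muscle-like and 509, 42 and 99 B cell-like cells. Without thinning the shares were 61.7%, 65.9% and 84.8% at median depths of 3968.5, 6356.5 and 4356.5 UMIs, and 0, 0.140% and 0.418% of B cell-like cells.

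Cox4i2 (chr2:152754173-152765037), the form of subunit IV known from lung and from low oxygen, was found in the same pericyte/smooth muscle-like cells. It had 14, 28 and 26 UMIs there, which is 57.2, 83.6 and 115 CPM with wide intervals (31.3 to 96.0, 55.6 to 121 and 75.3 to 169). In the cold library 7 of the 28 UMIs came from 1 cell. The common form Cox4i1 still made up most of the pair, since Cox4i2 accounted for 5.96%, 9.03% and 12.3% of both. Cox4i2 was read at 36.3 times the level of the next class, endothelial-like cells, which had 6 UMIs in all. In macrophage-like cells the cold library held 10 Cox4i2 UMIs in 7 cells, 4 of them in 1 cell, against 2 in the saline and 1 in the CL library.

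Cox8b (chr7:140898945-140900446), a form of subunit VIII found in muscle and in brown and beige fat, was sparse. Endothelial-like cells had 3, 19 and 8 Cox8b UMIs in the saline, cold and CL libraries (3.04, 19.9 and 12.6 CPM), and ASPC-like cells had 35, 29 and 8. In ASPC-like cells the UMIs came almost wholly from cluster 10, at 15.3, 24.4 and 2.88 CPM. Adipocyte transcripts moved with Cox8b in the endothelial-like cells: the summed level of 7 adipocyte markers was 159, 428 and 215 CPM, with 2, 1 and 0 of the 7 at 0, and Ucp1, the uncoupling protein of thermogenic fat, had 2, 88 and 5 UMIs. Of the 17 cold endothelial-like cells with Cox8b, 15 also carried an adipocyte marker UMI, compared with 50.2% of all cold endothelial-like cells. The part of adipocyte RNA in the Cox8b counts was not tested. Cox7a1, the muscle and thermogenic fat form of subunit VIIa, had 49, 29 and 123 UMIs over all cells. Cox6b2, a testis form, had 85, 60 and 74, of which 32, 21 and 19 were in cDC2-like cells. Over the 3 libraries together its level was 18.2 CPM in cDC2-like and 16.1 CPM in pericyte/smooth muscle-like cells.

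**Figure D2:**
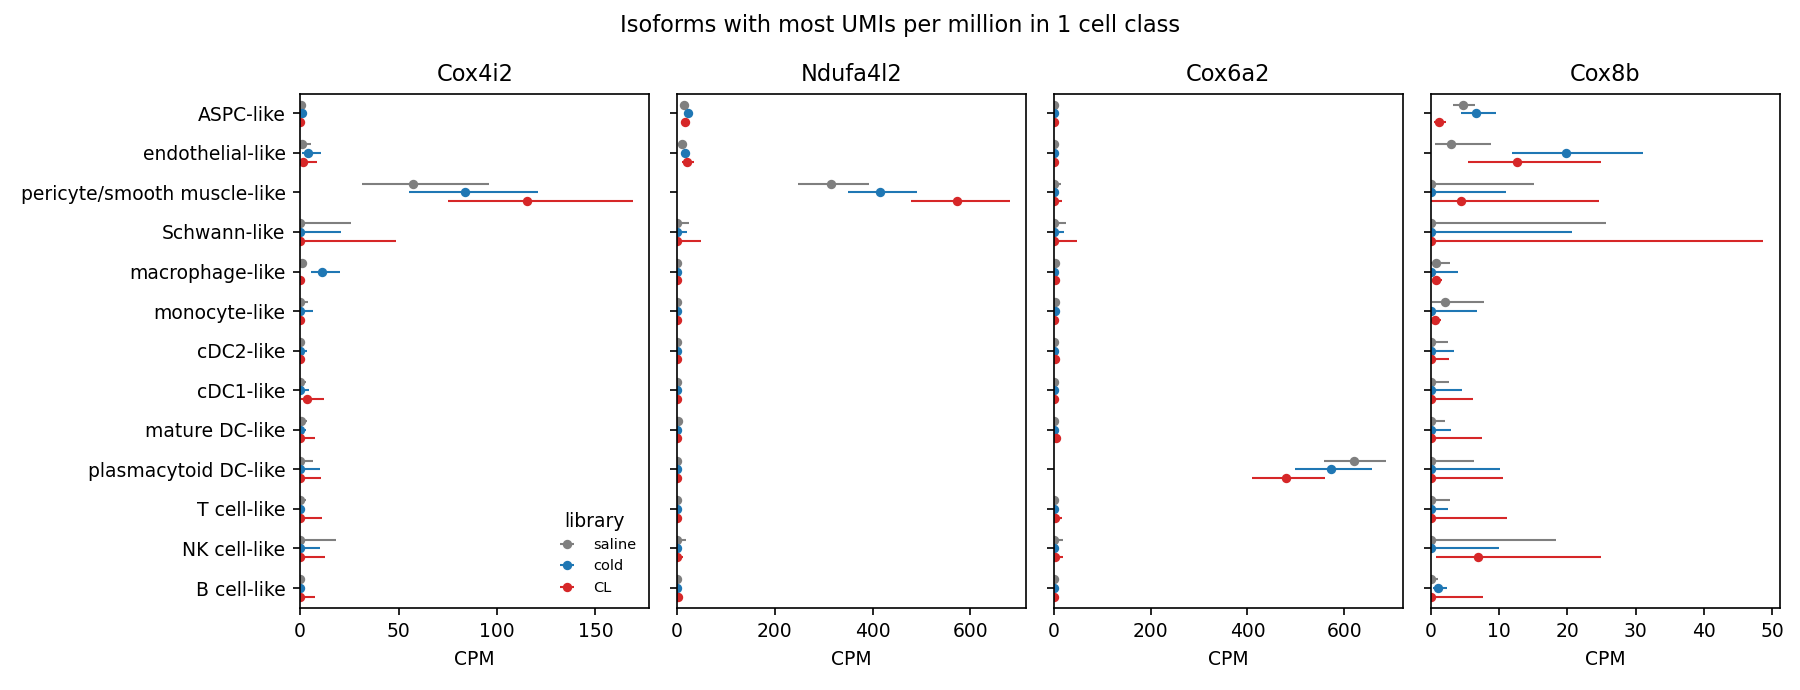
CPM (x axis, a separate linear scale for each gene) of 4 complex IV isoforms by cell class (y axis) and library (colour); bars are exact 95% Poisson intervals. Cox4i2 and Ndufa4l2 stand out in pericyte/smooth muscle-like cells and Cox6a2 in plasmacytoid DC-like cells in all 3 libraries, while Cox8b stays under 20 CPM in every class.

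The comparison of CL with saline asked what β3-adrenergic stimulation left in the cells of the stroma. The summed level was higher in the CL library in 6 of the 7 main classes, most in macrophage-like and ASPC-like cells. In macrophage-like cells it was 11965 CPM in saline, 11923 in cold and 16549 in CL cells, a log2 ratio of CL over saline of 0.47 (0.45 to 0.49), or 0.29 in cells with at most 5% mitochondrial UMIs. In ASPC-like cells it was 10840, 11226 and 14294 CPM, a ratio of 0.40 (0.39 to 0.41). In cDC2-like cells it was 13895, 14382 and 16940 CPM and the ratio was 0.29 (0.26 to 0.31). Endothelial-like cells read 12265, 14241 and 14315 CPM, with a ratio of 0.22 (0.18 to 0.26). The ratio was 0.16 (0.11 to 0.20) in B cell-like and 0.05 (0.03 to 0.08) in monocyte-like cells. Mature DC-like cells read 13024, 11655 and 12715 CPM, and their ratio of −0.03 (−0.08 to 0.01) had an interval that included 0.

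A gene was counted as higher when it was more than 25% above, or as lower when it was more than 20% below, the other library (the same ratio in both directions), and had at least 100 UMIs over the 2 libraries compared. Sampling alone can carry a gene near 100 UMIs past this limit, so each count is given with the share of all genes that passed it. In ASPC-like cells 59 of 75 tested members were higher in CL than in saline and 1 was lower, where 26.3% of all genes were higher and 16.9% lower. In macrophage-like cells 54 of 74 were higher and 1 lower, against 36.0% and 21.5% of all genes. In cDC2-like cells it was 44 of 73 and 1, against 33.3% and 19.7%. In endothelial-like cells 24 of 68 were higher and 1 lower, against 20.5% and 25.1%. Monocyte-like cells had 11 of 74 higher and 1 lower, below the background of 24.0% and 17.7% on both sides. In monocyte-like cluster 6 alone (34.7% of the CL cells of the class) the summed ratio was 0.17. The median log2 ratio there was 0.20 for the tested members and 0.05 for all genes tested. In monocyte-like cluster 2, with 65.3% of the CL cells, the summed ratio was −0.01 (−0.05 to 0.03). B cell-like cells had 21 of 74 higher and 4 lower (17.2% and 21.5% of all genes), and mature DC-like cells 3 of 62 higher and 4 lower (19.5% and 12.6%). The median log2 ratio of the tested members was 0.46 in ASPC-like, 0.51 in macrophage-like and 0.39 in cDC2-like cells, beside 0.06, 0.14 and 0.10 for all genes tested.

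No single complex carried the difference. In ASPC-like cells 28 of 35 complex I genes, 3 of 4 of complex II, 5 of 8 of complex III, 9 of 13 of complex IV and 14 of 15 of complex V were higher in CL. Summed levels in the saline and the CL library were 3522 and 4803 CPM for complex I, 234 and 313 CPM for complex II, 1108 and 1381 CPM for complex III, 2965 and 3680 CPM for complex IV, and 3004 and 4109 CPM for complex V. In macrophage-like cells the counts were 25 of 35, 2 of 4, 4 of 8, 10 of 12 and 13 of 15 in the same order.

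**Figure D3:**
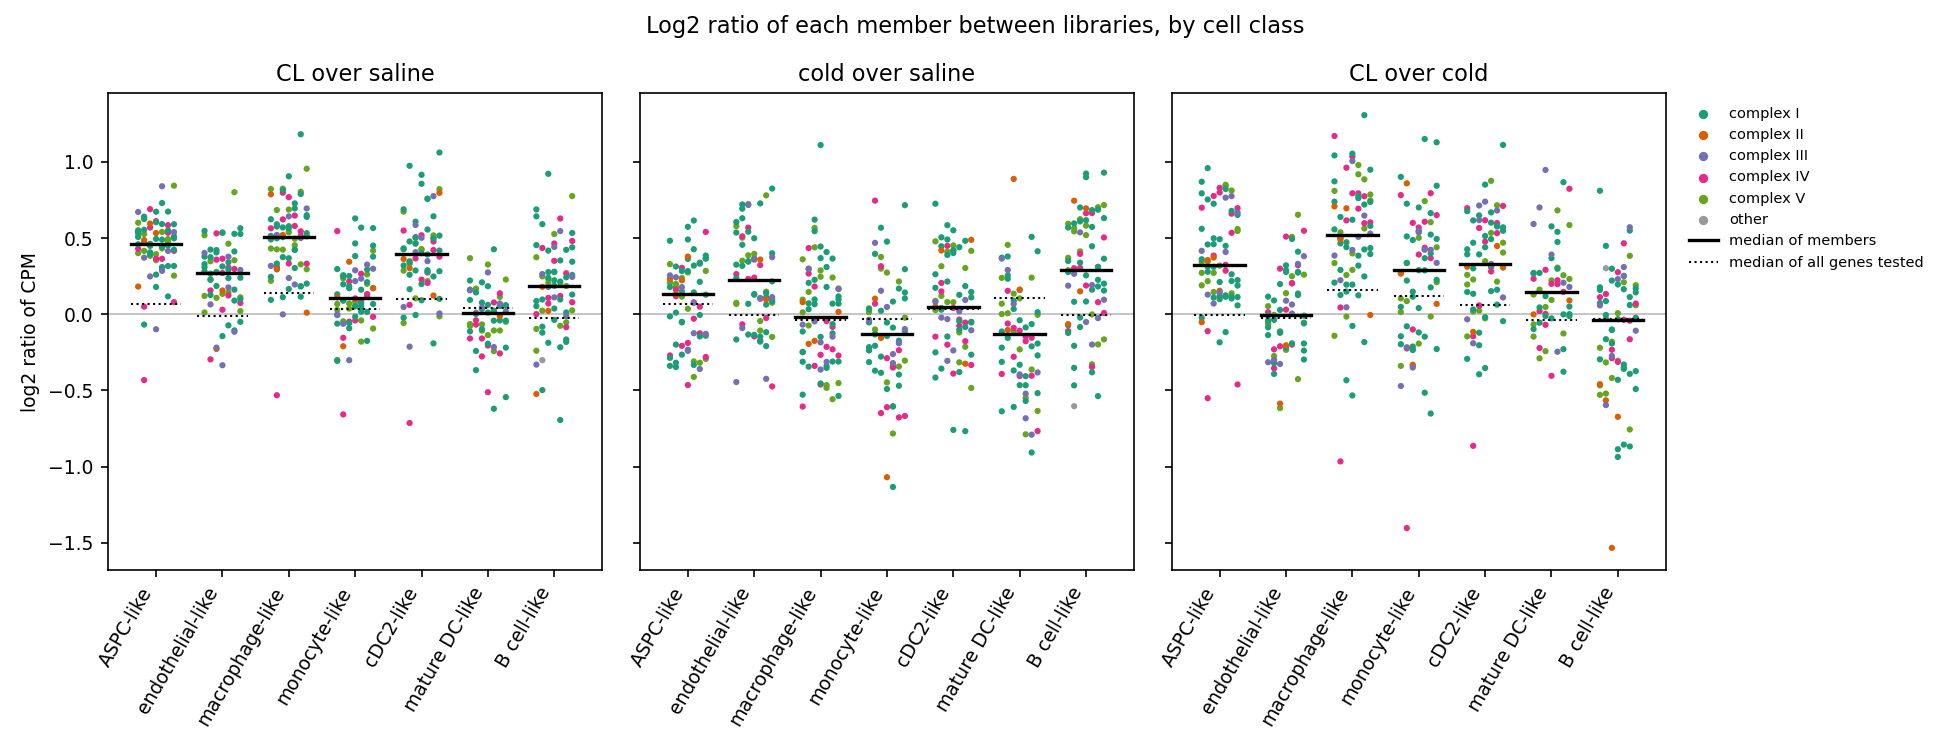
Log2 ratio of CPM (y axis) of each tested member in the 7 main classes (x axis) for the 3 comparisons (panels); points are genes coloured by complex, solid lines the median of members and dotted lines the median of all genes tested. For CL over saline the solid line stands above the dotted one in ASPC-like, endothelial-like, macrophage-like and cDC2-like cells (for example 0.46 against 0.06 in ASPC-like cells), and the lowest point of 4 of the 7 classes is Cox7a2l.

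Of complex I, Ndufs4, an accessory subunit of the NADH-oxidising arm, was read in macrophage-like cells at 46.9, 43.0 and 107 CPM, a log2 ratio of CL over saline of 1.18 (0.90 to 1.47). Ndufs8, which holds iron-sulphur clusters, was read in cDC2-like cells at 59.0, 83.7 and 116 CPM, a ratio of 0.98 (0.59 to 1.37). Of complex III, Uqcrq was read in ASPC-like cells at 128, 135 and 230 CPM, a ratio of 0.84 (0.72 to 0.96). The CL library was the high one for each of these genes.

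The 4 genes of complex II, which also oxidises succinate in the tricarboxylic acid cycle, did not follow 1 pattern. Sdhb, its iron-sulphur subunit, was read in macrophage-like cells at 83.5, 88.3 and 144 CPM in the saline, cold and CL libraries, a CL over saline ratio of 0.79 (0.57 to 1.01). Sdha, the catalytic flavoprotein, was read there at 93.9, 94.9 and 94.6 CPM, a ratio of 0.01 (−0.20 to 0.23). Of the membrane anchors, Sdhc had 87.1, 76.1 and 107 CPM, a ratio of 0.30 (0.08 to 0.52), and Sdhd had 57.3, 50.7 and 82.2 CPM, a ratio of 0.52 (0.26 to 0.79). Sdha was thus level where Sdhb and Sdhd were higher in CL. In ASPC-like cells the ratios were 0.49 for Sdhb, 0.60 for Sdhc and 0.53 for Sdhd, and 0.18 (0.02 to 0.35) for Sdha, again the smallest of the 4. In B cell-like cells Sdhb was higher in cold than in saline, at 65.0 and 38.8 CPM, a ratio of 0.75 (0.44 to 1.06), and so was Sdhd, at 46.7 and 28.8 CPM, a ratio of 0.70 (0.34 to 1.06), while Sdha read 94.9 and 99.2 CPM.

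Cox5a, a structural subunit of complex IV, was read in macrophage-like cells at 343, 389 and 597 CPM in the saline, cold and CL libraries, a CL over saline ratio of 0.80 (0.69 to 0.90). In ASPC-like cells it was read at 119, 147 and 192 CPM, with a ratio of 0.69 (0.57 to 0.82). In endothelial-like cells the cold library was the high one, with 313, 464 and 401 CPM. In monocyte-like cells, where few members passed the limit, the highest was Cox7a2, the common form of subunit VIIa, at 194 CPM in saline and 283 CPM in CL cells, a ratio of 0.55 (0.32 to 0.78). In endothelial-like cells it was Atp5j, a subunit of the ATP synthase stalk, at 412 and 597 CPM, a ratio of 0.53 (0.33 to 0.74).

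Atp5g1 (chr11:96068852-96075670) was among the 3 members with the highest CL over saline ratio in 4 main classes. It is 1 of the 3 genes Atp5g1, Atp5g2 and Atp5g3, whose products give the same mature c subunit of the ATP synthase rotor ring and differ in their import sequences. ASPC-like cells had 147, 179 and 263 CPM of Atp5g1 in the saline, cold and CL libraries, and the ratio of CL over saline was 0.84 (0.73 to 0.95). Macrophage-like cells had 132, 149 and 257 CPM, a ratio of 0.96 (0.79 to 1.13). In cDC2-like cells it was 163, 218 and 289 CPM, with a ratio of 0.82 (0.59 to 1.06). B cell-like cells had 98.9, 163 and 169 CPM, so there the cold and the CL library were both above saline. Endothelial-like cells, with 145, 153 and 147 CPM, differed by less than counting error. Atp5g1 made up 34.1%, 34.9% and 48.8% of the Atp5g1 and Atp5g2 UMIs over all cells, and 37.5%, 34.4% and 50% in macrophage-like cells. Within macrophage-like cluster 8 (Retnla, Cd163, Lyve1) Atp5g1 was read at 105, 137 and 186 CPM. Within cluster 5 (C1qb, Ccl12 and the monocyte marker Ly6c2) it was read at 194 CPM in saline and 274 CPM in CL cells. The order thus held inside these clusters. Within ASPC-like clusters 4, 10 and 15 the saline and CL levels lay closer together than in the whole class, at 121 and 164, 177 and 238, and 186 and 244 CPM, and in cluster 14, with 42.1% of the CL cells of the class, they were 155 and 319 CPM.

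Cox7a2l (chr17:83501918-83517330), which encodes a relative of subunit VIIa, went the other way. It was the single member past the limit on the low side of CL over saline in ASPC-like, macrophage-like, monocyte-like and cDC2-like cells. In monocyte-like cells Cox7a2l was read at 359 CPM in saline, 602 CPM in cold and 228 CPM in CL cells. That is a log2 ratio of −0.66 (−0.83 to −0.48) for CL over saline, 0.75 (0.52 to 0.97) for cold over saline and −1.40 (−1.58 to −1.23) for CL over cold. Macrophage-like cells had 282, 381 and 195 CPM, a CL over saline ratio of −0.53 (−0.66 to −0.40). In cDC2-like cells the levels were 550, 611 and 335 CPM, with a ratio of −0.71 (−0.88 to −0.55). ASPC-like cells had 307, 333 and 227 CPM, a ratio of −0.43 (−0.53 to −0.34). In mature DC-like cells, with 570, 547 and 555 CPM, and in B cell-like cells, with 406, 501 and 427 CPM, the CL and saline values lay within each other's intervals.

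The lower Cox7a2l level in CL was uneven between clusters. Monocyte-like cluster 2 (Spp1, Irg1), which held 35.8% of saline and 65.3% of CL monocyte-like cells, read 188 CPM in saline and 163 CPM in CL cells, where the intervals overlapped. Cluster 6 (Chil3, Ccr2) read 463, 600 and 362 CPM. It held 64.2%, 96.0% and 34.7% of the saline, cold and CL monocyte-like cells, so the class ratios with cold also reflect this mix. In macrophage-like cluster 8 the saline, cold and CL values were 301, 368 and 300 CPM, and in ASPC-like cluster 10 they were 241, 227 and 245 CPM, so neither of these clusters showed the lower CL level of its class. Macrophage-like cluster 8 held only 6.37% of the CL cells of its class. Clusters 5 and 7, with 48.3% and 45.4%, read 246 and 218 CPM in saline and 196 and 180 CPM in CL cells, with overlapping intervals. In ASPC-like cluster 4 the saline, cold and CL values were 354, 408 and 280 CPM. ASPC-like clusters 14 and 15 read 277 and 271 CPM in saline and 203 and 204 CPM in CL cells, and the intervals overlapped in cluster 15.

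**Figure D4:**
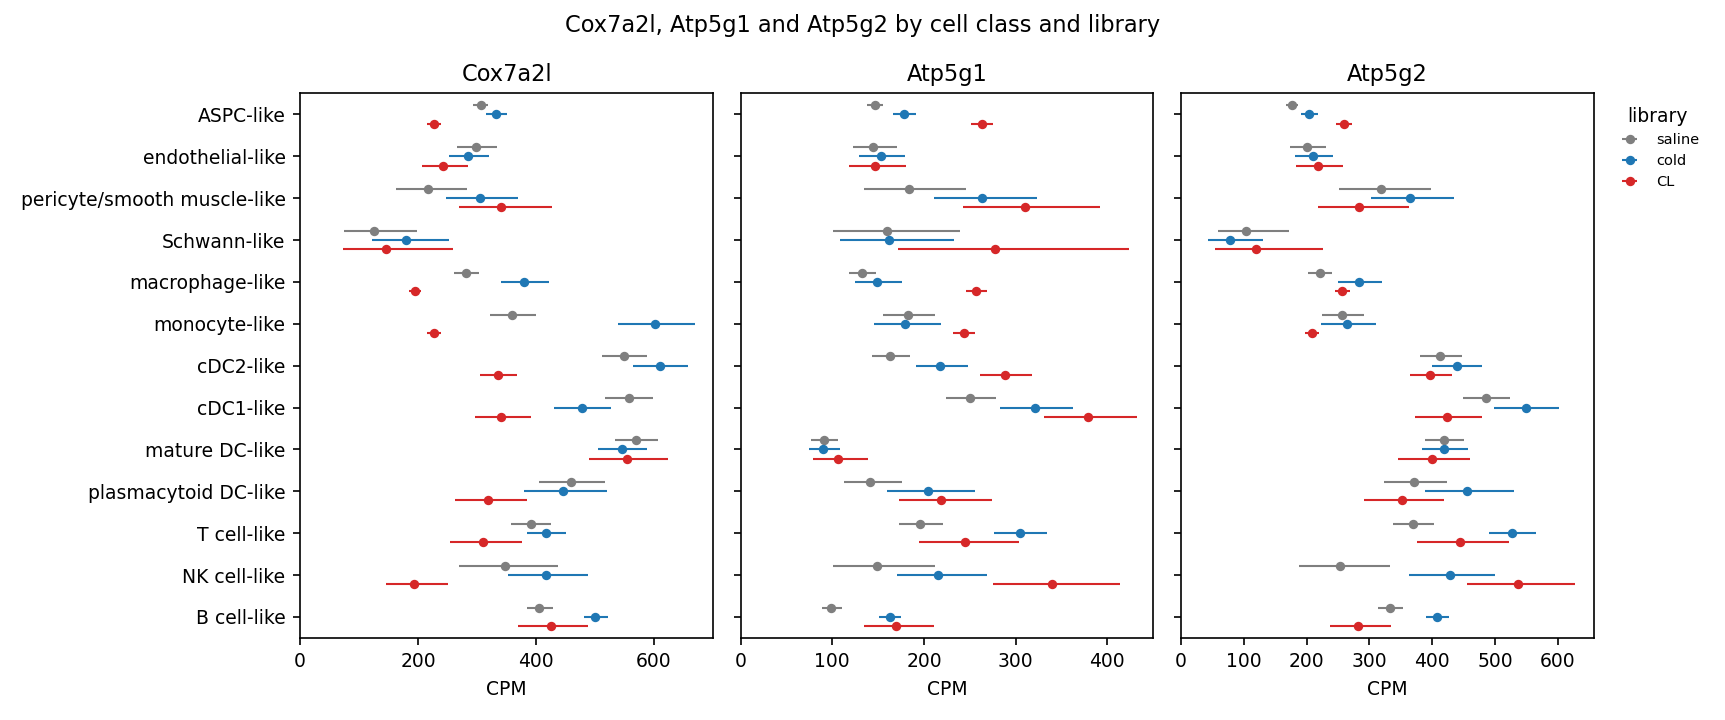
CPM (x axis, linear, from 0) of Cox7a2l, Atp5g1 and Atp5g2 by cell class (y axis) and library (colour); bars are exact 95% Poisson intervals. Cox7a2l was lowest in the CL library in monocyte-like cells (228 against 359 and 602 CPM), while Atp5g1 was highest there in ASPC-like cells (263 against 147 and 179 CPM).

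Uqcrh, the hinge protein of complex III, also stayed behind. ASPC-like cells had 407, 345 and 380 CPM, with a CL over saline ratio of −0.10 (−0.17 to −0.02), and monocyte-like cells had 560, 579 and 454 CPM, with a ratio of −0.30 (−0.44 to −0.16). Macrophage-like cells read 379, 367 and 379 CPM. Uqcrh was therefore level or lower in CL in these classes, while 5 of the 8 complex III genes in ASPC-like and 4 of 8 in macrophage-like cells were higher.

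The mix of clusters inside a class also differed between libraries, and most ratios within clusters were smaller than that of the class. ASPC-like cluster 4 held 54.7%, 56.0% and 17.9% of the class and cluster 14 (Timp1, Lcn2, Cxcl5) 3.39%, 0.169% and 42.1%. Within clusters 4, 10, 14 and 15 the summed ratio of CL over saline was 0.18, 0.42, 0.13 and 0.23, compared with 0.40 for the class. Macrophage-like cluster 8 held 71.9%, 89.9% and 6.37% of the class, cluster 5 21.9%, 10.1% and 48.3%, and cluster 7 (Saa3) 6.19%, 0 and 45.4%. The ratio was 0.41 in cluster 8, 0.18 in cluster 5 and 0.08 in cluster 7. Every one of these 7 within-cluster values was above 0 and all but those of clusters 8 and 10 were below 0.25.

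Other mitochondrial and metabolic genes give the setting. In ASPC-like cells 64 of 74 mitochondrial ribosomal protein genes were higher in CL than in saline (median log2 ratio 0.53), as were 21 of 32 assembly factors (0.42), 10 of 12 inner membrane carriers (0.51), 10 of 12 glycolysis genes (0.76), 7 of 17 genes of the tricarboxylic acid cycle (0.31) and 10 of 11 cell cycle genes (1.44). In macrophage-like cells all 14 tested glycolysis genes were higher (1.30), along with 56 of 75 mitochondrial ribosomal protein genes (0.50) and 16 of 30 assembly factors (0.40). The 13 mitochondrially encoded subunits did not share the direction: in macrophage-like cells 10 were lower in CL and none higher, with a median of −0.50, and in ASPC-like cells none passed the limit and the median was 0.01. Nuclear subunit UMIs per mitochondrially encoded subunit UMI were therefore 0.204 in saline, 0.172 in cold and 0.372 in CL macrophage-like cells, and 0.321, 0.287 and 0.401 in ASPC-like cells. The median share of mitochondrial UMIs in all kept cells was 5.67%, 6.49% and 4.11% in the saline, cold and CL libraries, whose mix of classes differed. Within classes it was 5.84%, 6.40% and 4.17% in macrophage-like cells and 3.18%, 3.72% and 3.46% in ASPC-like cells. The part of cell integrity in these ratios was not tested.

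Cold against saline gave smaller and more divided differences. The summed ratio was 0.26 (0.24 to 0.28) in B cell-like and 0.22 (0.18 to 0.25) in endothelial-like cells. It was 0.05 (0.03 to 0.07) in ASPC-like and 0.05 (0.02 to 0.08) in cDC2-like cells, −0.01 (−0.04 to 0.03) in macrophage-like, −0.08 (−0.12 to −0.04) in monocyte-like and −0.16 (−0.19 to −0.13) in mature DC-like cells. With the median of all genes subtracted the ASPC-like value was −0.019, so its direction is not settled, and the cDC2-like value changed sign with the clustering. In B cell-like cells 33 of 75 tested members were higher and 7 lower, where 23.6% of all genes were higher and 21.1% lower. In endothelial-like cells it was 30 of 70 and 3, against 21.6% and 24.0%. Mature DC-like cells had 7 of 68 higher and 23 lower (24.4% and 11.8% of all genes), and monocyte-like cells 7 of 68 and 18 (20.9% and 26.7%). Macrophage-like cells had 11 of 74 higher and 14 lower (16.3% and 22.4%), ASPC-like cells 15 of 75 and 6 (19.9% and 10.9%), and cDC2-like cells 19 of 73 and 9 (20.7% and 15.8%), near the background of each.

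In endothelial-like cells 14 of 32 complex I genes, 2 of 3 of complex II, 3 of 8 of complex III, 3 of 12 of complex IV and 8 of 15 of complex V were higher in cold. Atp5f1, in the peripheral stalk of ATP synthase, was read at 163 CPM in saline, 280 in cold and 209 in CL cells, a cold over saline ratio of 0.78 (0.49 to 1.07). Atp5c1, its central stalk subunit, was read at 167, 276 and 180 CPM, with a ratio of 0.72 (0.44 to 1.01). Cox6c, a small subunit of complex IV, was read at 405, 292 and 427 CPM, a cold over saline ratio of −0.47 (−0.70 to −0.25). The cold library was thus the high one for the stalk genes and the low one for Cox6c. The list of RNA quality and stress genes (Fos, Jun, Atf3, Malat1 and others) was lower in cold endothelial-like cells, with 6 of 7 past the limit and a median of −1.32. Its part in the result was not tested.

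In B cell-like cells Ndufb8, in the membrane arm of complex I, was read at 60.2 CPM in saline, 115 CPM in cold and 81.6 CPM in CL cells, a cold over saline ratio of 0.93 (0.69 to 1.17). Ndufs8 was read at 53.6, 100 and 52.3 CPM, a ratio of 0.90 (0.65 to 1.16). Cycling cells moved with this difference. Cells with an Mki67 or Top2a UMI, genes of dividing cells, were 3.19% of the saline and 8.96% of the cold B cell-like cells, and 17 of 17 cell cycle genes were higher in cold (median 1.55). Without them the summed level was 9294 CPM in saline and 9916 CPM in cold, and the ratio was 0.09 in place of 0.26. It was 0.05 when cells were clustered at a finer resolution. The difference was also uneven between clusters, at 0.10 in cluster 1 (Ighg2c, Igkc, Jchain, Ighd) and 0.42 in cluster 3 (Ms4a1, Iglc2, Mzb1).

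In mature DC-like cells Atp5e, the small epsilon subunit of ATP synthase, was read at 389 CPM in saline, 225 in cold and 361 in CL cells, a cold over saline ratio of −0.79 (−1.0 to −0.58). Cox6c was read at 357, 210 and 371 CPM, −0.77 (−0.98 to −0.56). Sdhb, the iron-sulphur subunit of complex II, stood against them with 35.3, 65.3 and 65.3 CPM, a cold over saline ratio of 0.89 (0.39 to 1.40). The cold library was the low one for Atp5e and Cox6c, whereas for Sdhb the saline library was.

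Some members kept their direction under cold from class to class. Of the 68 members tested in at least 6 main classes, 12 were higher in cold than in saline in every class tested, among them Ndufa8, Ndufb10, Uqcrfs1, Cox4i1, Atp5c1, Atp5d, Atp5f1 and Atp5g2. By the same rule 9.66% of 1987 genes were higher in every class. Another 10 of the 68 were lower in every class tested, as were 6.54% of all genes: Ndufa2, Ndufa3, Ndufa7, Ndufc1, Uqcr11, Cox6c, Cox7c, Atp5e, Atp5j2 and Atp5l. Both sets hold genes of complexes I, III, IV and V. They differed in the length of their transcripts, a feature looked at after the sets were seen: the 12 had a median transcript length of 919.5 bases and none under 600, the 10 a median of 540 bases and 8 under 600. Of all 68 members, 26 were under 600 bases. These sets were chosen by their ratios, so this is a description. All classes share the same 3 libraries, so a like direction in several classes says nothing about other mice.

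Over all tested members, those under 600 bases had a median cold over saline ratio of −0.15 in ASPC-like, −0.25 in macrophage-like, −0.31 in monocyte-like, −0.12 in cDC2-like, −0.40 in mature DC-like, 0.07 in endothelial-like and 0.01 in B cell-like cells. Members of 600 bases or more had medians of 0.23, 0.15, 0.02, 0.15, 0.00, 0.35 and 0.40 in the same order. Across members, Spearman's rho between length and ratio ran from 0.30 in endothelial-like cells (70 genes) to 0.66 in mature DC-like cells (68 genes). Genes are no independent replicates and all points share the 2 libraries. Across the other genes the rho was −0.21 in ASPC-like cells (7849 genes), −0.15 in macrophage-like cells (4121 genes) and 0.06 in mature DC-like cells (2875 genes). Split at 600 bases, however, the other genes also had the lower median on the short side in 6 of the 7 main classes, by less than the members: −0.0008 and 0.07 in ASPC-like, −0.11 and −0.03 in macrophage-like and −0.19 and 0.12 in mature DC-like cells. With ribosomal protein genes left out of the short genes, the short medians of these classes were 0.035, −0.10 and −0.08. In endothelial-like cells the short median was then 0.0099, above the long median of −0.0108. For CL over saline the rho across members lay between −0.16 and 0.29. The stress list had a median of 0.03 in ASPC-like and −0.09 in macrophage-like cells for cold over saline, where the rho across members was 0.56 and 0.55. In mature DC-like cells its median was −0.88, and its summed level, led by Malat1, had a ratio of 0.18. The part of RNA quality or stress in the length pattern was not tested.

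**Figure D5:**
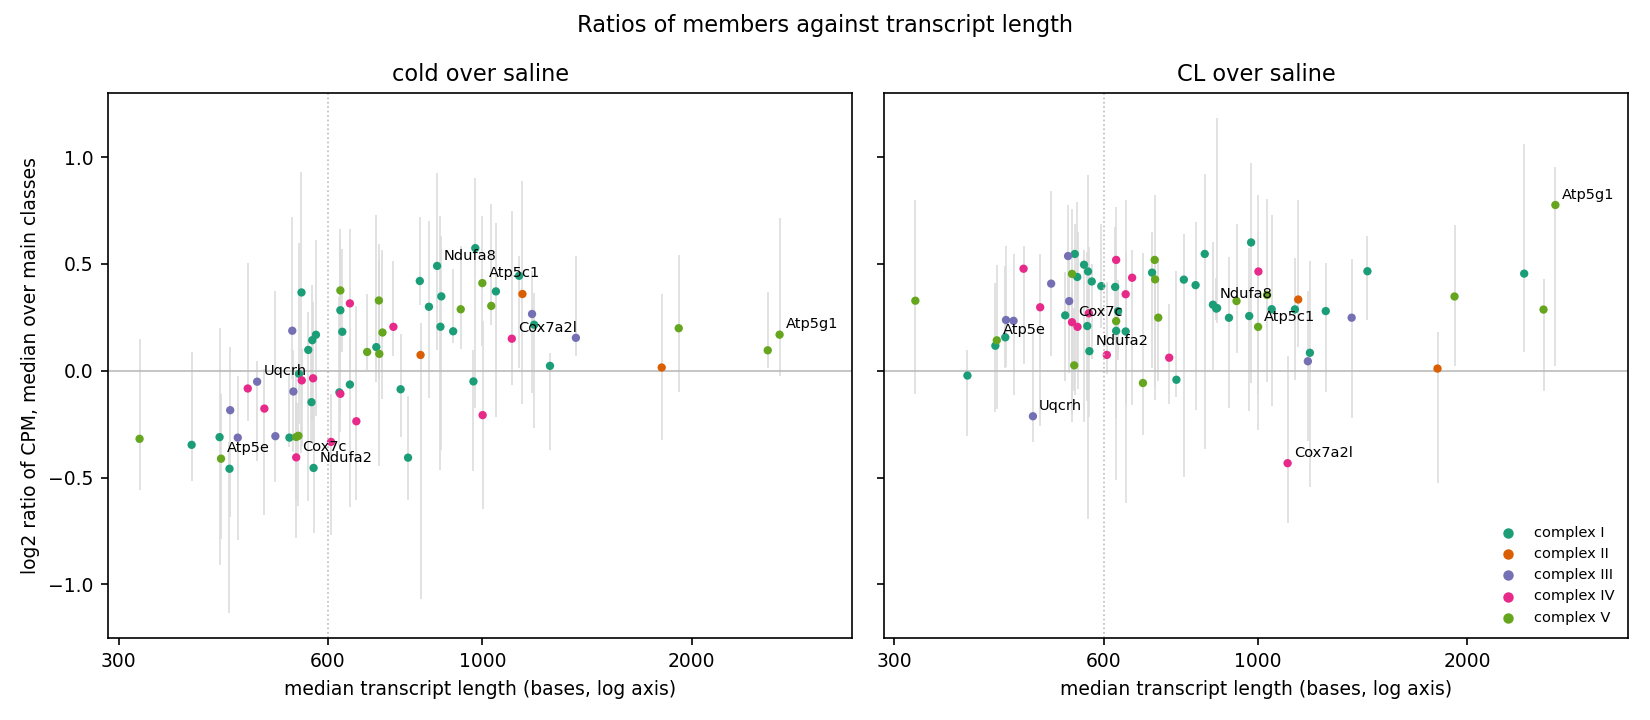
Median log2 ratio of CPM over the main classes (y axis) against median transcript length (x axis, log scale) for the members tested in at least 6 main classes, cold over saline on the left and CL over saline on the right; grey lines span the lowest to the highest class and the dotted line marks 600 bases. On the left short members such as Atp5e, Cox7c and Ndufa2 lie below 0 and longer ones such as Ndufa8 and Atp5c1 above it, while on the right most members lie above 0 at every length and Cox7a2l stands alone at the bottom.

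The promoters of these sets were searched for sites of factors known to drive respiratory genes. RefSeq promoters (GRCm38.p6) were matched for 69 of the 84 members and read over the 250 bases before the start, on both strands. The NRF1 motif GCGCNTGCG was found for 17 of 69 members (24.6%), against 7.99% of 17492 protein-coding genes. The ETS/GABPA motif CCGGAAG was found for 12 (17.4%, against 10.2%) and the YY1 motif AAGATGGCG for 2 (2.90%, against 0.840%). Any of the 3 was found for 25 members (36.2%, against 17.3%). The ETS/GABPA motif ends and the YY1 motif begins with AAG, so their matches can share bases, and the NRF1 motif is close to its own reverse complement, so 1 stretch can match on both strands. Among members tested in at least 6 main classes, 58 had a promoter, of which 14 held the NRF1 and 11 the ETS/GABPA motif. Of the members higher in cold in every class, 4 of 9 with a promoter held the NRF1 motif and none the ETS/GABPA motif, and of those lower in every class, 1 of 8 held the NRF1 motif and 3 the ETS/GABPA motif. The sets and the motifs shown were both picked from these data, so the contrast describes a few genes and was not tested. The 4 NRF1 sites of the first set and the 3 ETS/GABPA sites of the second are shown because these counts differ most between the sets, with the motif on either strand in capitals, 5′ to 3′ on the strand of the gene, which is the minus strand for each. The NRF1 sites lie at chr2:36049339-36049367 (Ndufa8), chr17:24724431-24724459 (Ndufb10), chr2:10080433-10080461 (Atp5c1) and chr15:102671070-102671098 (Atp5g2), where the GENCODE M21 annotation also places an exon, and in Ndufa8 a further match begins just before the bases shown. The ETS/GABPA sites lie at chr10:80406870-80406898 (Uqcr11), chr2:174464186-174464214 (Atp5e) and chr9:44920937-44920965 (Atp5l), outside annotated exons.
Ndufa8: CGCTTGCGcgtcgctggagaCGCATGCGC
Ndufb10: ctgcccactaCGCAGGCGCagctgtcacc
Atp5c1: gcctgagctcccgCGCACGCGCactgagt
Atp5g2: gctccggccGCGCATGCGCagagccttcc
Uqcr11: ttctctcctccCCGGAAGtagatgtcaat
Atp5e: tacggccacagCTTCCGGtagccgctcgg
Atp5l: acttcaccgatCTTCCGGaccaacatgaa
A match of letters is no measure of binding, and no binding data were read.

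CL against cold placed many short genes on the high side. Of 68 members tested in at least 6 main classes, 26 were under 600 bases. Of these 68, 22 were higher in CL in every class, 14 of them under 600 bases, and none was lower in every class, against 7.66% and 4.09% of all genes. For CL over saline it was 21 of 70 and none, against 10.6% and 3.9%. ASPC-like cells had 38 of 75 higher and 2 lower, where 19.1% of all genes were higher and 18.5% lower, and macrophage-like cells 52 of 74 and 3 (39.9% and 23.1%). Monocyte-like cells had 36 of 74 higher and 8 lower (36.3% and 22.8%), cDC2-like cells 37 of 73 and 3 (29.3% and 20.4%), endothelial-like cells 9 of 68 and 6 (15% and 16%), and mature DC-like cells 12 of 57 and 2 (14.2% and 19.5%). B cell-like cells had 6 of 75 higher and 21 lower (18.1% and 25%), and in cells with at least 1000 genes the summed B cell-like ratio changed sign, from −0.10 to 0.13. Atp5e in ASPC-like cells was read at 270, 203 and 364 CPM in the saline, cold and CL libraries, a CL over cold ratio of 0.84 (0.73 to 0.96). Cox7a2 in macrophage-like cells was read at 197, 129 and 291 CPM, a ratio of 1.17 (0.90 to 1.45). This comparison shares the cold library with cold over saline and the CL library with CL over saline, so its values do not stand apart from theirs.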

How the data were processed

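Each of the 3 libraries was read from the authors' deposited matrix of raw UMI counts per gene and barcode. Per the file headers the matrices came from Cell Ranger 3.0.2, and per the submitters' processing notes the build was mm10. The sources used here give no annotation, cell calling or aligner settings. Barcodes with at least 500 genes and at most 15% mitochondrial UMIs were kept (6271, 3862 and 6705 of 7674, 5050 and 7943 in the saline, cold and CL libraries; median 3242, 3624.5 and 3847 UMIs). In each library the barcodes with the highest Scrublet scores were removed as doublets, at a share of 8e-06 times the number of barcodes (315, 119 and 360), since Scrublet's own limit took only 87, 4 and 55.

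After scaling each cell to 10000 UMIs and log transformation, 2000 variable genes, 30 principal components and 15 neighbours gave Leiden clusters at resolution 1 with seed 1 (scanpy 1.11.5, Python 3.11.15, scipy 1.17.1). The members, mitochondrial genes and all listed genes (450) were left out of the clustering. A cluster was named by its best-scoring marker list, and needed at least 3 markers and, a limit added after the clusters were seen, at least 50% of the class's markers. UMIs were summed per class and library. CPM have exact Poisson intervals, shares Clopper-Pearson intervals and ratios exact conditional binomial intervals, all at 95%, and the script was tested on simulated data. The cells of a library are not replicates, and with 1 library per treatment no test was made. In each main class and comparison the rule for naming took the 3 members with the highest and the 3 with the lowest ratio (at least 100 UMIs), ranked by the interval bound nearer to 0, and all isoforms; the text gives a selection. Members and lists were chosen with earlier results of these data known. Transcript lengths are medians per gene over its protein-coding transcripts in GENCODE M21. They need not be the length of the transcript expressed in these cells. Genes with near copies may share reads. Alternatives covered the denominator, scaling, cell filters, doublets, weighting of cells, clusters, cycling cells, fold and UMI limits.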

Additional observations from a re-analysis of the deposited data

Results flagged for a closer look

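Between cold and saline the summed members moved in opposite directions in different classes. The log2 ratio was 0.26 in B cell-like, 0.22 in endothelial-like, 0.05 in ASPC-like and 0.05 in cDC2-like cells, but −0.08 in monocyte-like and −0.16 in mature DC-like cells. The 4 classes on the high side and the 2 on the low side had intervals that left out 0, but the ASPC-like and cDC2-like values changed sign under other settings (−0.019 in ASPC-like cells with the median of all genes subtracted, and −0.013 and −0.026 in cDC2-like cells at Leiden resolutions 0.5 and 2). The difference between classes was not tested, since each treatment has 1 library.

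Between CL and cold the ratio was 0.47 in macrophage-like, 0.35 in ASPC-like, 0.24 in cDC2-like, 0.13 in monocyte-like and 0.13 in mature DC-like cells, but −0.10 in B cell-like cells. This difference was not tested either, and the B cell-like value changed sign under 3 alternatives.

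Barcodes that the filters left out also held the members' RNA. Those with under 500 genes had 4308, 4692 and 4761 CPM in the saline, cold and CL libraries, below every named class. Those with over 15% mitochondrial UMIs had 12331, 14335 and 23416 CPM. In the CL library this was above every named class, in 91 barcodes. The cell types behind these barcodes were not examined.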

How the results depend on the processing

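The summed CL over saline ratios in ASPC-like, macrophage-like, endothelial-like and cDC2-like cells stayed above 0 under each alternative run, and their size depended on the processing. Counts of members past a limit in this section come without the share of all genes under the same setting. They show how a count moved with the setting and are not set against a background. With mitochondrial genes out of the denominator the macrophage-like log2 ratios were 0.45 (CL over saline) and 0.44 (CL over cold). With ribosomal protein genes out as well, the CL over saline values were 0.42 in ASPC-like, 0.014 in monocyte-like and 0.21 in cDC2-like cells, the CL over cold values 0.37, 0.043 and 0.15 in the same order and 0.44 in macrophage-like cells, and the cold over saline value −0.029 in monocyte-like cells. With the median of all genes subtracted, cold over saline was −0.019 in ASPC-like and −0.042 in cDC1-like cells (both reversed), 0.032 in macrophage-like, 0.014 in cDC2-like and −0.27 in mature DC-like cells. CL over saline was then 0.34 (0.3350 before rounding) in ASPC-like, 0.33 in macrophage-like, 0.019 (0.0185) in monocyte-like, 0.18 in cDC2-like and −0.078 in mature DC-like cells, and CL over cold 0.31 in macrophage-like, 0.017 (0.0165) in monocyte-like and 0.17 in cDC2-like cells.

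In cells with at most 5% mitochondrial UMIs, cold over saline was 0.030 in ASPC-like and −0.22 in macrophage-like cells, CL over saline 0.29 in macrophage-like (36 members past the limit in place of 55) and 0.021 in monocyte-like cells, and CL over cold 0.51 in macrophage-like and 0.067 in mature DC-like cells. In cells with at least 1000 genes, macrophage-like cells read −0.060 (cold over saline) and 0.39 (CL over saline), and B cell-like cells 0.18 (cold over saline), 0.31 (CL over saline) and 0.13 (CL over cold, reversed, 46 members past the limit in place of 27). For CL over cold 23 endothelial-like members passed in place of 15. With doublets kept, cold over saline in endothelial-like cells was 0.18, and 22 mature DC-like members passed for CL over cold in place of 14, as with Scrublet's own limit (22). As a mean over cells, cold over saline was 0.27 in endothelial-like, −0.070 in macrophage-like, −0.20 in mature DC-like and 0.12 in B cell-like cells. CL over saline was 0.36 in ASPC-like, 0.53 in macrophage-like, 0.25 in cDC2-like and 0.058 (0.0575) in B cell-like cells, and CL over cold 0.30 in ASPC-like, −0.052 in endothelial-like, 0.60 in macrophage-like and 0.20 in cDC2-like cells.

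In each class the largest cluster with at least 30 cells in every library was also read alone. For macrophage-like and monocyte-like cells this was cluster 8 and cluster 6, with 6.37% and 34.7% of their CL cells. ASPC-like cells then read 0.18 for CL over saline (27 members past the limit in place of 60) and 0.14 for CL over cold (26 in place of 40). Macrophage-like cells read 0.054 (cold over saline), 0.41 (CL over saline) and 0.36 (CL over cold, 36 in place of 55). Monocyte-like cells read 0.17 for CL over saline (29 in place of 12) and 0.23 for CL over cold, and B cell-like cells 0.096 for cold over saline and 0.027 for CL over cold (reversed). Without cells with Mki67 or Top2a, macrophage-like cells read −0.048 (cold over saline) and 0.52 (CL over cold), and B cell-like cells 0.093 (cold over saline, 26 in place of 40), 0.070 (CL over saline) and −0.024 (CL over cold). At Leiden resolution 0.5 cold over saline was 0.10 in macrophage-like, −0.023 in monocyte-like and −0.013 in cDC2-like cells (reversed), and CL over saline 0.55, 0.093 and 0.21 in the same order. At resolution 2 cold over saline was −0.014 in monocyte-like, −0.026 in cDC2-like (reversed) and 0.050 in B cell-like cells, CL over saline 0.10 in B cell-like cells, and CL over cold 0.047 in monocyte-like, 0.31 in cDC2-like and 0.052 in B cell-like cells (reversed).

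With a fold limit of 1.5, the members past it for cold over saline, CL over saline and CL over cold were 1, 15 and 20 in ASPC-like, 9, 1 and 3 in endothelial-like, 3, 23 and 33 in macrophage-like, 11, 2 and 17 in monocyte-like, 3, 15 and 18 in cDC2-like, 9, 1 and 7 in mature DC-like and 19, 7 and 9 in B cell-like cells. With at least 20 UMIs, 13 (CL over saline, in place of 7) and 22 (CL over cold, in place of 14) mature DC-like members passed. No share of all genes is given at either of these 2 limits. The cause of the changes between settings was not tested. The limit of 5% mitochondrial UMIs left too few pericyte/smooth muscle-like, Schwann-like, plasmacytoid DC-like, NK cell-like and B cell-like cells, and resolution 0.5 gave no NK cell-like cluster, so these were not run.

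No paired analysis was possible because each treatment has 1 library. Counting intervals leave out the spread between mice and preparations, which no value here measures. Free RNA was not subtracted. Depth limits the sparse isoforms: Cox8b and Cox4i2 rest on at most 35 UMIs in any class and library.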

Other observations

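In cell classes outside the main ones the members were also higher in CL than in saline. NK cell-like cells read 12494 CPM in saline, 13563 CPM in cold and 19147 CPM in CL cells, a log2 ratio of CL over saline of 0.62 (0.55 to 0.68), in 68, 94 and 77 cells. Cells with an Mki67 or Top2a UMI made up part of these, and without them the level was 11467, 13007 and 16870 CPM, in the same order. In cDC1-like cells the level was 15610, 16488 and 19394 CPM, with a ratio of 0.31 (0.28 to 0.35). T cell-like cells read 13441, 15858 and 16085 CPM, so the cold and the CL library were both above saline, and cycling cells made up 16.9%, 29.9% and 28.9% of them. Among the T cell-like cells without those UMIs the levels were 11219, 12313 and 13543 CPM. Pericyte/smooth muscle-like cells, the class with the highest saline level, did not share this: they read 19152, 17071 and 19928 CPM and the interval of CL over saline, 0.06 (−0.0021 to 0.12), included 0.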
